A study of Mus musculus with 4 samples.

Results

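Polycomb proteins keep genes silent by marking histone H3 at lysine 27, and the genes described here encode the machinery that writes, supports and erases that mark. They are 10 of the 27998 genes in the count tables: Ezh2, Ezh1, Eed, Suz12, Rbbp4, Rbbp7, Jarid2, Kdm6a, Kdm6b and Bmi1. The choice was made by symbol, with earlier results of these data known. Transcripts were counted in single cells of cerebellar tumours from 4 littermate Atoh1-cre:SmoM2 mice, killed at postnatal day 20, with 1 library per mouse. In this strain a Cre recombinase under Atoh1 switches on SmoM2, a constitutively active Smoothened, in granule neuron precursors, and medulloblastoma of the Sonic hedgehog (SHH) subgroup forms. All 4 mice carry both alleles and none was treated, so no library holds normal cerebellum and the comparisons are between classes of cells within the tumours.

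Ezh2 and Ezh1 are the alternative methyltransferases of Polycomb repressive complex 2 (PRC2). Eed and Suz12 are the core subunits without which either enzyme is inactive, Rbbp4 and Rbbp7 are histone-binding subunits that also serve other chromatin complexes, and Jarid2 is an accessory subunit that helps to recruit PRC2. Kdm6a (Utx) and Kdm6b (Jmjd3) remove the methyl groups. Bmi1 belongs to PRC1, the complex that ubiquitinates histone H2A at marked genes. In the developing cerebellum Bmi1 is known for supporting the proliferation of granule neuron precursors, and KDM6A is among the genes mutated in human medulloblastoma.

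The 10 genes lie on 7 chromosomes of the mouse genome (RefSeq, GRCm38.p6). Suz12 (chr11:79993106-80034123), Ezh1 (chr11:101191115-101226463) and Kdm6b (chr11:69398508-69420367) are on chromosome 11. Ezh2 is at chr6:47530274-47595270, Eed at chr7:89954654-89980976, Rbbp4 at chr4:129307100-129335370, Jarid2 at chr13:44730774-44921643 and Bmi1 at chr2:18677018-18686629. Kdm6a (chrX:18160862-18279936) and Rbbp7 (chrX:162760372-162779090) are X-linked.

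After filtering, 4101 cells were analysed, 1363, 888, 680 and 1170 of mice 1 to 4, with median depths of 1699 to 2564 UMIs (unique transcript tags) per cell. Clusters gave 3150 progenitor-like cells, 543 differentiating granule-like, 213 astroglia-like, 118 oligodendrocyte-precursor-like, 37 myeloid-like, 35 oligodendrocyte-like (91.4% of them from mouse 4) and 5 choroid or ependymal-like cells. Progenitor-like cells are the clusters left after the other classes were named. Their summed granule progenitor markers (8 genes, Atoh1 and Gli1 among them, all detected) ranged over mice from 15.6 to 17.6 UMIs per 10000, against 8.68 to 14.2 in differentiating cells. Progenitor-like and differentiating cells together are called granule-lineage-like. The summed granule-lineage markers of the latter, which include Barhl1, Pax6 and Zic1, ranged over mice from 28.9 to 31.6 UMIs per 10000, against 11.0 to 18.8 in oligodendrocyte-precursor-like and 3.61 to 8.06 in myeloid-like cells. Averaged over cells, the largest progenitor-like cluster (748 cells, median depth 1093 UMIs) held only 18.6, and the other progenitor-like clusters 28.9 to 34.5. The smaller differentiating cluster (88 cells) held 21.6. By the same measure the oligodendrocyte-precursor-like cluster held 11.1 and the astroglia-like clusters 16.1 to 25.2, so these markers do not set every granule-lineage-like cluster apart from glia. Progenitor-like cells were called to S phase (1008 cells), to G2 or M phase (G2M, 1340 cells) or to neither (802 cells) from lists of 43 and 54 cycle genes that hold none of the 10 genes. These calls cut a continuous score, and 102, 116 and 217 cells of the S, G2M and neither groups lay within 0.05 of the cut. Their median depths were 2220, 2088.5 and 2040.5 UMIs, and cells with under 30 Malat1 UMIs per 10000 made up 20.3%, 31.2% and 10.5% of them. Malat1 is a nuclear RNA, and its part in the results was tested by leaving those cells out.

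The libraries of mice 2 and 4 held Xist-positive cells beside cells with Y-linked transcripts. Xist, the RNA of the inactive X chromosome in females, stood at 1431 and 1387 counts per 1000000 UMIs (CPM) in mice 1 and 3 and at 84.9 and 296.1 CPM in mice 2 and 4. The Y-linked Eif2s3y was at 1.61 and 1.54 CPM in mice 1 and 3 and at 87.5 and 100.2 CPM in mice 2 and 4. Among the 513 cells of library 4 with at least 3000 UMIs, 92 held Xist and no Y-linked UMI, 263 the reverse and 13 both. In library 2 the numbers were 18, 164 and 2 of 325 cells. Of the 5670 deposited barcodes, 20 occurred in more than 1 library, and the number that chance alone would give was not worked out. Each count of genes below was recomputed without the Xist-positive cells of libraries 2 and 4, and Ezh2 is given both ways.

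Levels are CPM of the UMIs summed per mouse and class. Differences are log2 differences from edgeR on those sums, with the mouse as a block and a standard error (SE) worked back from the test. Adjusted p-values are over all genes tested, with a threshold of 0.05. In such bulk-like sums, fewer cells with a transcript and less of it per cell cannot be told apart.

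**Figure D1:**
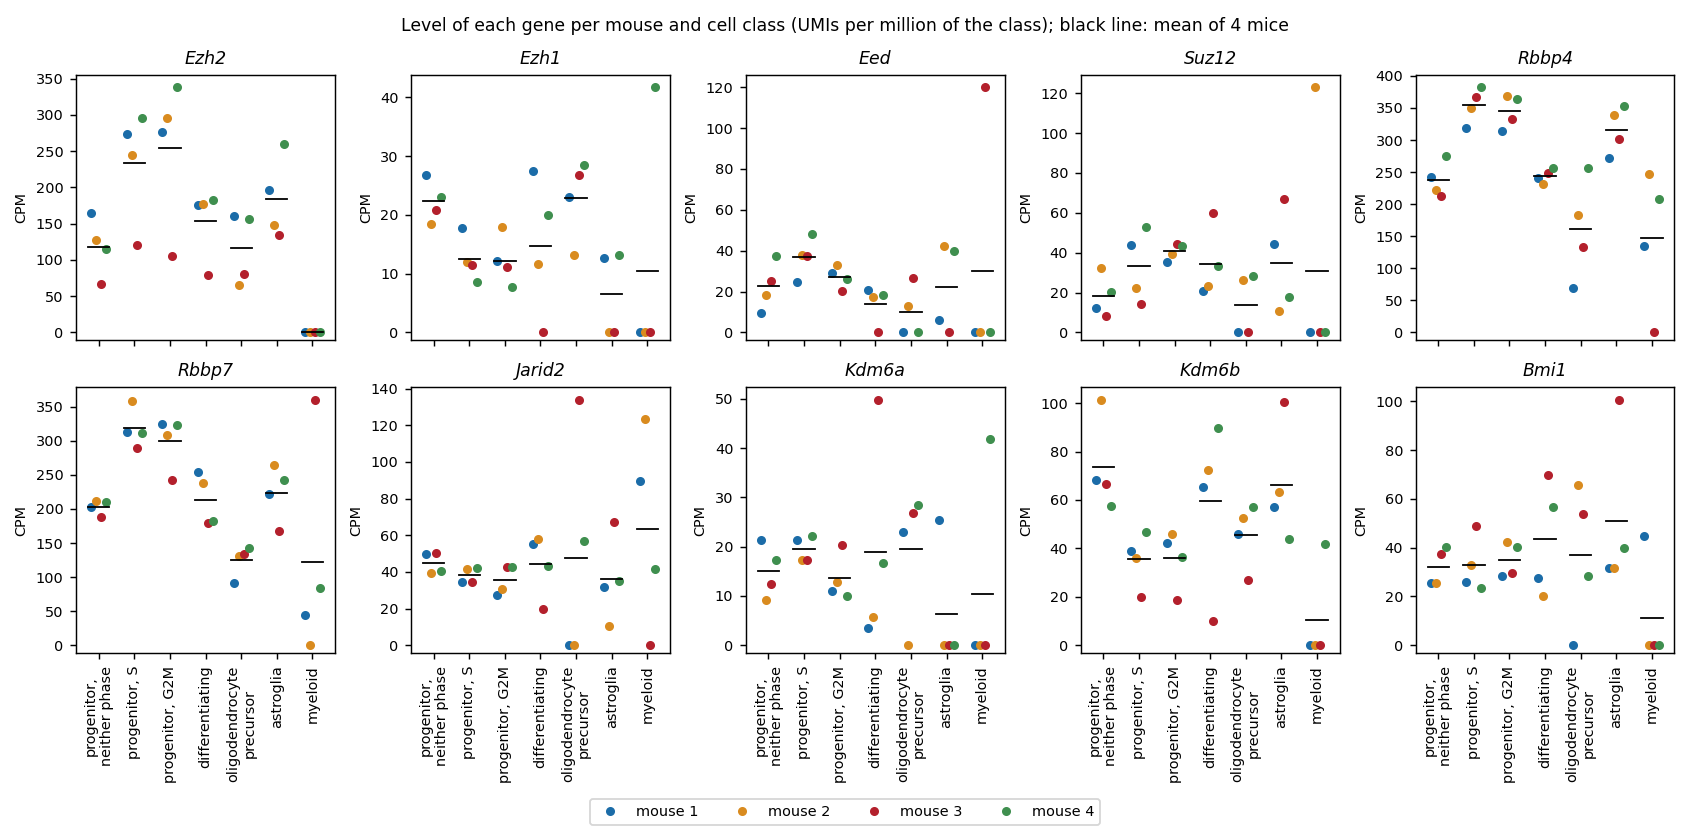
Level of each of the 10 genes (CPM, linear axes that differ between panels) in 7 cell classes. Points are mice 1 to 4 and black lines are means of the 4 mice; Ezh2 is highest in the S and G2M groups, lowest in mouse 3 among granule-lineage-like cells, and at 0 in all myeloid-like sums.

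The PRC2 enzyme Ezh2 was higher in cycling progenitor-like cells, and its relative Ezh1 was not. In mice 1 to 4 Ezh2 stood at 165, 127, 66.7 and 115 CPM in cells of neither phase, at 274, 245, 121 and 295 CPM in S and at 276, 295, 106 and 339 CPM in G2M. Every mouse was higher in both cycling groups, while mouse 3 in S and G2M lay below the level that mouse 1 and mouse 2 had outside the cycle. The log2 difference was 0.93 ± 0.12 (SE) for S against neither phase (adjusted p = 3.25e-14, higher in 4 of 4 mice). For G2M against neither phase it was 1.09 ± 0.11 (adjusted p = 7.45e-20, 4 of 4 mice). Without the Xist-positive cells of libraries 2 and 4 these were 0.95 and 1.06, and without mouse 3 they were 0.93 and 1.12. Between G2M and S the difference was 0.18 ± 0.08 (adjusted p = 0.132), and the unadjusted p was 0.0251.

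Among the progenitor-like clusters, which were formed without these genes, Ezh2 was highest in one led by histone genes of S phase such as Hist1h1b (pooled 322.9 CPM). It was next highest in one led by the mitotic genes Ccnb1 and Plk1 (302.4 CPM). The lowest, at 95.3 CPM, was a cluster led by Lmo2, Islr2 and Cdkn1a, a cyclin-dependent kinase inhibitor, and 63.4% of its cells came from mouse 3. Over the 7 classes drawn in the plot of levels, Ezh2 averaged 254 ± 102 CPM (SD, n = 4 mice) in G2M, 234 ± 78.1 in S, 185 ± 56.8 in astroglia-like, 154 ± 49.4 in differentiating, 118 ± 40.5 in neither phase and 116 ± 49.9 in oligodendrocyte-precursor-like cells. It was 0 in myeloid-like cells. Neighbours in that order, other than the last, differ by less than the spread over mice.

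Mouse 3 had the lowest Ezh2 in each granule-lineage-like class. In progenitor-like cells as a whole the 4 mice stood at 243, 238, 102 and 293 CPM. Mouse 3 was 1.32 log2 units below the other mice, 13th from the lowest of 2691 genes with at least 500 UMIs, and the same value was -0.04 for Rbbp4 and -0.27 for Rbbp7. Ezh2 in mouse 4 was near the other end, 0.58 above the other mice and at rank 2673 from the lowest. In library 4, the 116 progenitor-like cells with an Xist UMI held 132 CPM of Ezh2 (95% Poisson interval 101 to 170), against 329.8 (305 to 356) in the 673 cells without one. Their median depths were 3918 and 2162 UMIs. The Y-positive cells of that library, with a median depth of 4096.5 UMIs, held 352 CPM (319.6 to 387). In library 2 the 25 Xist-positive cells held 213 CPM (133 to 322), against 239.8 (217 to 264) in 640 others. In library 3 itself, 450 cells with an Xist UMI held 85.3 CPM and 130 without one held 179.8 CPM (125.96 to 248.98). Library 1 went the other way, with 252 CPM (231 to 273) in 860 cells with an Xist UMI and 195 CPM (154 to 244) in 256 without one. These intervals cover counting error only. Whether cells of 1 tumour are present in another library was not tested.

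**Figure D2:**
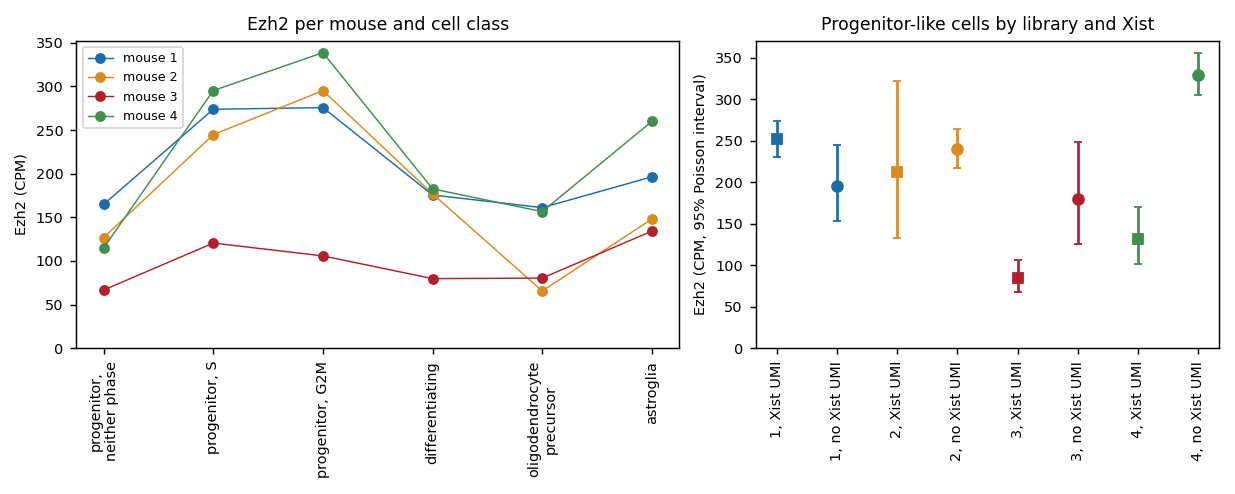
Left, Ezh2 level (CPM) per mouse in 6 cell classes, with lines joining the values of a mouse. Right, Ezh2 (CPM with 95% Poisson interval) in progenitor-like cells of each library, split by whether a cell holds an Xist UMI; the Xist-positive cells of library 4 lie at 132 CPM and the others at 329.8.

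Ezh1, the methyltransferase usually linked to resting cells, was sparse, with 41, 33 and 42 UMIs in the neither, S and G2M groups. In mice 1 to 4 it stood at 26.8, 18.5, 20.9 and 23.0 CPM in cells of neither phase and at 12.1, 17.9, 11.1 and 7.75 CPM in G2M. All 4 mice were lower in G2M and the groups did not overlap, but the difference of -0.87 ± 0.34 missed the threshold (adjusted p = 0.0507). It passed without mouse 2 (-1.18, adjusted p = 0.0268). Ezh1 did not pass the filter on low counts for S against neither phase. Its share of all Ezh1 and Ezh2 UMIs was 14.9% (exact 95% binomial interval 10.9 to 19.7) in neither phase, 4.80% (3.33 to 6.68) in S and 4.04% (2.93 to 5.42) in G2M. In mice 1 to 4 the share was 13.99%, 12.7%, 23.8% and 16.7% in neither phase and 4.21%, 5.71%, 9.52% and 2.24% in G2M, so every mouse was higher outside the cycle. Differentiating cells were between these groups at 9.45% (6.15 to 13.7), from 24 Ezh1 UMIs. The binomial intervals pool the UMIs of all mice and cover counting error only, and single mice lie outside them. The 2 transcripts may be captured with unequal efficiency, so the share is compared between classes and not read as a ratio of molecules.

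**Figure D3:**
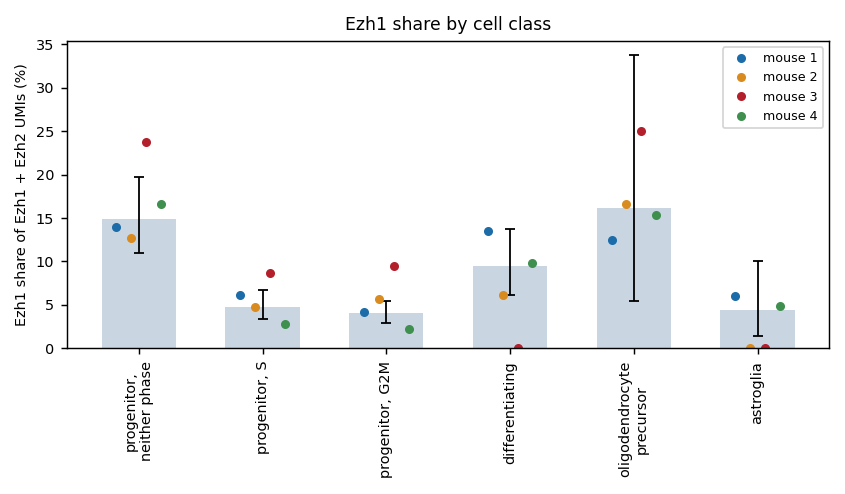
Ezh1 share (percent) of all Ezh1 and Ezh2 UMIs in 6 cell classes. Bars are pooled over mice with exact 95% binomial intervals, which cover counting error only, and points are mice 1 to 4. The share is 14.9% in progenitor-like cells of neither phase and 4.04% in G2M.

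The core subunits Suz12 and Eed were also higher in cycling cells, from fewer UMIs. Suz12 stood at 12.1, 32.3, 8.34 and 20.1 CPM in neither phase, 43.9, 22.4, 14.4 and 53.1 CPM in S and 35.4, 39.6, 44.6 and 43.4 CPM in G2M. G2M did not overlap with neither phase, and mouse 2 was lower in S. The differences were 0.98 ± 0.29 in S (adjusted p = 0.00614, 3 of 4 mice) and 1.14 ± 0.27 in G2M (adjusted p = 0.000367, 4 of 4 mice). Eed stood at 9.39, 18.5, 25.03 and 37.4 CPM in neither phase and at 24.9, 37.9, 37.3 and 48.2 CPM in S, higher in each mouse with overlapping groups. Its difference of 0.79 ± 0.28 in S passed narrowly (adjusted p = 0.0355) and held in 3 of 13 alternatives. In G2M it was 0.51 ± 0.29 (adjusted p = 0.223). The Suz12 call in S was lost without mouse 4 (0.82, adjusted p = 0.125).

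Sequences are shown for the 3 of these genes whose promoter window holds a motif tied to cycle transcription. The windows are RefSeq's (GRCm38.p6), 250 bases before to 50 after a start site, and 9 of the 10 genes have one. The start used for Ezh2 lies inside the gene limits given above and is not their outer end at chr6:47595270. TTTNNCGC, a core of the E2F site through which many genes of S phase are switched on, was searched on both strands and is in 5.2% of 32851 such windows and in those of Ezh2 and Suz12. TTTGAA, the cell cycle homology region (CHR) of many genes of G2 and mitosis, is in 17.9% and in those of Suz12 and Eed. Each line gives 30 bases on the gene's strand, with the motif in capitals. TTCAAA is the CHR read on the other strand.
Ezh2, E2F core 4 bases after the start, chr6:47595009-47595038, minus strand: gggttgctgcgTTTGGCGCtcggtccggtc
Suz12, E2F core from base -219, chr11:79992876-79992905, plus strand: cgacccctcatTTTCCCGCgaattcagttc
Suz12, CHR from base -203, chr11:79992891-79992920, plus strand: ccgcgaattcagTTCAAAgaggcgtccggg
Eed, CHR from base -197, chr7:89981156-89981185, minus strand: cagcctatagatTTTGAAtctctcccttca
Eed, CHR from base -183, chr7:89981142-89981171, minus strand: tgaatctctcccTTCAAAaaaagaatctag
The windows of Rbbp4, Rbbp7, Ezh1, Jarid2, Kdm6a and Bmi1 hold neither string of letters. A match describes the letters only, and binding was not measured.

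The histone-binding subunits Rbbp4 and Rbbp7 changed by less than Ezh2 and with little spread over mice. Rbbp4 stood at 243, 221, 213 and 276 CPM in neither phase, 319, 349.9, 367 and 383 CPM in S and 314, 369, 332 and 363 CPM in G2M. Neither cycling group overlapped with neither phase. The differences were 0.53 ± 0.09 in S (adjusted p = 4.18e-07) and 0.54 ± 0.09 in G2M (adjusted p = 5.65e-08), both higher in 4 of 4 mice. Rbbp7 stood at 202, 212, 188 and 209.8 CPM in neither phase, 313, 358.5, 289.9 and 311 CPM in S and 325, 308, 243 and 323 CPM in G2M. Here too the groups did not overlap. Its differences were 0.64 ± 0.10 (adjusted p = 2.96e-09) and 0.62 ± 0.10 (adjusted p = 3.5e-09), higher in 4 of 4 mice each.

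The demethylase Kdm6b went the other way. It stood at 68.4, 101, 66.7 and 57.5 CPM in cells of neither phase, 39.1, 36.2, 20.1 and 46.9 CPM in S and 42.4, 46.0, 18.6 and 36.4 CPM in G2M. All 4 mice were lower in both cycling groups, without overlap. The log2 difference was -0.96 ± 0.20 in S (adjusted p = 3.1e-05) and -0.91 ± 0.19 in G2M (adjusted p = 4.13e-05), and 0.03 ± 0.20 between G2M and S (adjusted p = 0.94). Kdm6b is also an inducible gene, and several immediate early genes were lower in the cycling groups too. Their summed level (16 genes, all detected) ranged over mice from 15.4 to 26.8 UMIs per 10000 in neither phase, 11.4 to 19.9 in S and 11.7 to 17.8 in G2M. These ranges overlap. In S 6 of 10 tested were lower and none higher, with Btg2 at -1.18 ± 0.14, Junb at -1.16 ± 0.22 and Fos at -0.54 ± 0.12. In G2M 6 of 11 were lower and 1, Klf6 (1.18 ± 0.23), was higher. In differentiating against progenitor-like cells 4 of 11 were lower and none higher, while Kdm6b was higher. Of all genes tested, 7.13% were lower in S, 10.4% in G2M and 10.4% in differentiating cells. The shares that were higher were 9.4%, 12.4% and 10.1%. The part of the immediate early genes in the Kdm6b differences was not tested.

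Kdm6a, Jarid2 and Bmi1 gave no call between phases. Kdm6a stood at 21.5, 9.22, 12.5 and 17.2 CPM in neither phase, 21.3, 17.2, 17.2 and 22.2 CPM in S and 11.1, 12.8, 20.4 and 10.1 CPM in G2M, from 29, 52 and 45 UMIs. It was tested only between G2M and S (-0.64 ± 0.30, unadjusted p = 0.0334, adjusted p = 0.158). Jarid2 differed by -0.25 ± 0.23 in S and -0.35 ± 0.22 in G2M (adjusted p = 0.53 and 0.276). Bmi1 differed by -0.03 ± 0.26 and 0.21 ± 0.25 (adjusted p = 0.966 and 0.614). Both have between 53 and 129 UMIs in each group.

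Counted together, 6 of the 8 genes tested passed in S against neither phase (5 higher, 1 lower), beside 16.5% of all 6225 genes tested (9.4% higher and 7.13% lower). In G2M against neither phase 5 of 9 passed (4 higher, 1 lower), beside 22.9% of 6759 genes (12.4% higher and 10.4% lower). In G2M against S 0 of 9 passed, beside 12.9% of 7329 genes (7.26% higher and 5.59% lower), and 2 of the 9 had an unadjusted p under 0.05. DESeq2 also called 0 of 9 there. The medians over the tested members were 0.58, 0.51 and 0.02, against -0.02, -0.03 and 0.00 over all genes. S and G2M share the cells of neither phase as their reference, so the first 2 counts are not independent.

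**Figure D4:**
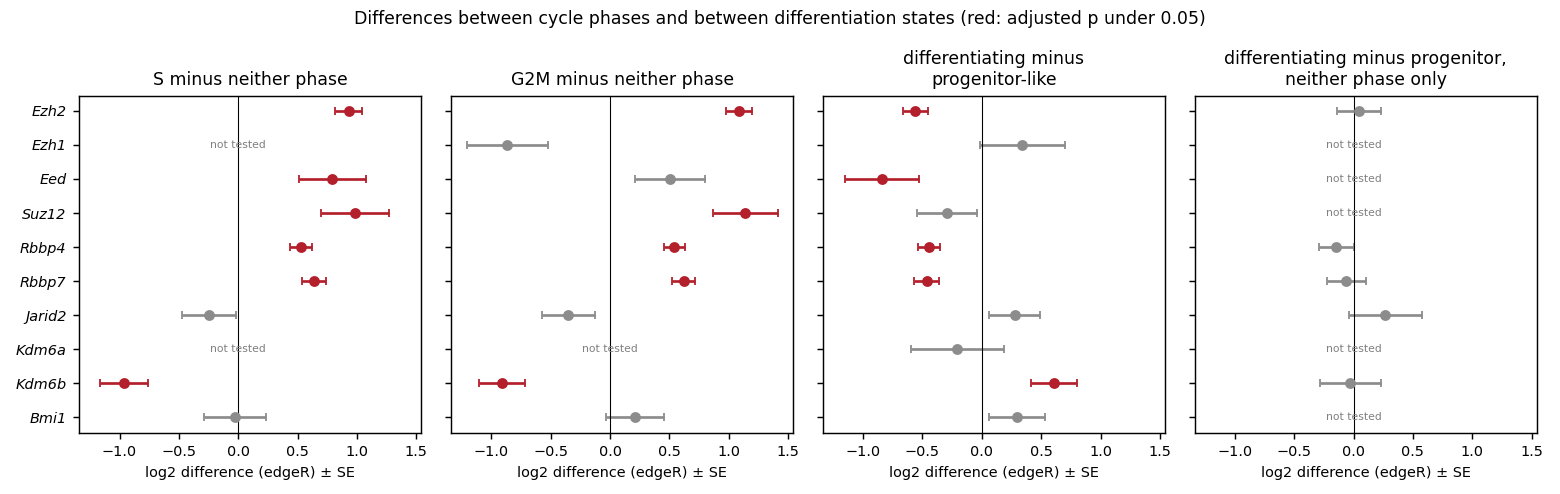
Log2 difference (edgeR, ± SE) of each gene in 4 comparisons; red points passed an adjusted p of 0.05 and grey points did not. Ezh2, Rbbp4 and Rbbp7 are higher in S and in G2M and lower in differentiating cells, Kdm6b is the reverse, and no gene passed when both differentiation states were limited to cells of neither phase.

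Other Polycomb and trithorax genes were counted in the same fits. Over all genes tested, 9.4% were higher and 7.13% lower in S, and 12.4% and 10.4% in G2M. Between G2M and S the shares were 7.26% and 5.59%. A single call in the PRC1 or trithorax list is near or below these shares and is not read as a result about the complex. Of the PRC2 accessory genes (Aebp2, Mtf2, Phf1, Phf19 and others) 0 of 3 tested passed in S or in G2M against neither phase with edgeR, and 1 of 3, Lcorl, was higher in G2M than in S (0.69 ± 0.21, adjusted p = 0.0134). Of PRC1 genes 1 of 15 passed in S and 1 of 16 in G2M, Yaf2 in both (0.61 ± 0.21 and 0.71 ± 0.21), a subunit of variant PRC1. Pcgf6, the subunit that defines another variant PRC1, was lower in G2M than in S (-1.03 ± 0.22, adjusted p = 0.000102). Of the complex that removes the PRC1 mark, Ogt was lower in S (-0.49 ± 0.13) and G2M (-0.71 ± 0.13), while its partner Hcfc1 was higher in G2M against neither phase (0.54 ± 0.20) and against S (0.60 ± 0.17). These were the only calls among 4 genes tested in S, 5 in G2M and 6 between G2M and S. Single calls in so short a list are not read as a result about that complex either. Among trithorax genes, which write activating methylation, 3 of 12 were higher in S: Paxip1 (0.91 ± 0.28), Wdr5 (0.65 ± 0.21) and Dpy30 (0.43 ± 0.10). In G2M 1 of 12 was higher, again Dpy30 (0.36 ± 0.10), and Setd1b was higher in G2M than in S (0.69 ± 0.22, 1 of 16).

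Rbbp4 and Rbbp7 also have partners outside PRC2. In S 4 of 13 of these were higher and none lower, beside 9.4% and 7.13% of all genes, with a median over the list of 0.11. The largest changes were those of Mybl2 (2.87 ± 0.39) and Rbl1 (1.96 ± 0.41) of the MuvB and DREAM complexes and Chaf1a (1.87 ± 0.27) of the chromatin assembly factor CAF-1. In G2M 6 of 16 were higher and 1 lower, led by Mybl2 (2.19 ± 0.44), Rbl1 (1.65 ± 0.42) and Lin9 (1.57 ± 0.32), beside 12.4% and 10.4% of all genes. Of NuRD, a deacetylase complex that also uses both proteins, 1 of 8 was higher in S, Gatad2a (0.92 ± 0.28), a share near that of all genes. In G2M 1 of 9 was higher, Mbd3 (0.26 ± 0.10), and 1 lower, Chd4 (-0.29 ± 0.09), also near the shares of all genes. E2f1 (1.10 ± 0.19) and E2f7 (1.93 ± 0.40) were the 2 of 4 tested E2F and RB genes higher in S, and between G2M and S 1 of 8 was lower in G2M, E2f1 (-0.91 ± 0.15), and 2 were higher, Rb1 (1.12 ± 0.26) and E2f5 (1.09 ± 0.31).

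Kdm6b had company among the other histone demethylases. In S 3 of 11 tested were lower and none higher: Kdm5b (-1.57 ± 0.18), Kdm7a (-1.11 ± 0.27) and Kdm5c (-0.73 ± 0.24). In G2M 4 of 12 were lower and none higher, with the same 3 furthest from 0 (-1.62 ± 0.17, -1.21 ± 0.26 and -0.73 ± 0.23). Kdm5b and Kdm5c remove methyl groups from lysine 4 of histone H3, while Kdm7a acts on lysines 9 and 27. The median over these lists was -0.49 in S and -0.45 in G2M. Of all genes tested, 7.13% were lower in S and 10.4% in G2M.

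Differentiating granule-like cells had less of 4 PRC2 transcripts and more Kdm6b than progenitor-like cells. Ezh2 stood at 176, 177, 79.8 and 183 CPM in differentiating cells, below the progenitor-like level in each mouse, although mouse 3 was lower in both classes than the others were in either. The difference was -0.56 ± 0.11 (adjusted p = 3.25e-05, lower in 4 of 4 mice), -0.61 without the Xist-positive cells and -0.57 without mouse 3. It was not called with cells thinned to 1000 UMIs (-0.36, adjusted p = 0.176) or with no replicate block (-0.43, adjusted p = 0.369). Rbbp4 stood at 241, 232, 249.4 and 256 CPM against 295, 327, 318 and 357 CPM, without overlap (-0.44 ± 0.10, adjusted p = 0.000179). Rbbp7 stood at 255, 238, 179.6 and 183 CPM against 286, 301, 246 and 303 CPM, with an overlap of single mice (-0.47 ± 0.10, adjusted p = 0.00027). Without mouse 4 that call was lost (-0.31, adjusted p = 0.0932). Eed stood at 20.7, 17.4, 0 and 18.3 CPM against 22.1, 31.2, 26.6 and 35.1 CPM, from 23 UMIs in differentiating cells (-0.84 ± 0.31, adjusted p = 0.0433). The Eed call was lost in 7 of 16 alternatives, among them without mouse 2, 3 or 4 (adjusted p = 0.132, 0.0882 and 0.294) and with DESeq2 (0.291).

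Kdm6b stood at 65.4, 72.5, 9.97 and 89.7 CPM in differentiating and 48.9, 56.2, 29.3 and 42.9 CPM in progenitor-like cells. It was higher in mice 1, 2 and 4 and lower in mouse 3, where the differentiating class held 1 UMI (0.61 ± 0.19, adjusted p = 0.0146). The call was lost in 6 of 16 alternatives, furthest without mouse 4 (0.26, adjusted p = 0.603). The others did not pass, with differences of 0.34 ± 0.36 for Ezh1, -0.29 ± 0.25 for Suz12, 0.28 ± 0.22 for Jarid2, -0.21 ± 0.39 for Kdm6a and 0.30 ± 0.24 for Bmi1. In all 5 of 10 genes passed (1 higher, 4 lower), beside 20.5% of 7675 genes (10.1% higher and 10.4% lower), and the median was -0.25 against 0.00 over all genes.

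The share of cycling cells differed between these classes. Summed S phase genes ranged over mice from 46.0 to 51.8 UMIs per 10000 in progenitor-like and 26.4 to 31.3 in differentiating cells, and summed G2M genes from 102 to 146 and 47.4 to 58.7. When both classes were limited to cells of neither phase (310 differentiating and 802 progenitor-like), 0 of the 5 genes that passed the filter were called by edgeR, beside 14.3% of 4164 genes (7.61% higher and 6.72% lower). None of the 5 had an unadjusted p under 0.05, and DESeq2 called none. Ezh2 stood at 149, 130.5, 74.9 and 141 CPM in the differentiating cells of neither phase and at 165, 127, 66.7 and 115 CPM in the progenitor-like ones, which overlap. The differences were 0.05 ± 0.19 for Ezh2, -0.14 ± 0.15 for Rbbp4, -0.06 ± 0.16 for Rbbp7, 0.27 ± 0.31 for Jarid2 and -0.03 ± 0.25 for Kdm6b. The change from the full comparison was not itself tested, and the classes are smaller here. When the phase scores were regressed out before clustering, Ezh2 differed by -0.25 (adjusted p = 0.0524).

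Among the related genes, Pcgf2 (0.94 ± 0.28), which can take the place of Bmi1 in PRC1, and Scmh1 (0.67 ± 0.22) were higher in differentiating cells, 2 of 17 tested PRC1 genes, a share near the 10.1% of all genes. Chd3 of NuRD was higher (1.65 ± 0.31, from 46 and 88 UMIs, 1 of 9), as were the demethylases Kdm5b (0.87 ± 0.16) and Kdm7a (0.82 ± 0.25), 2 of 13. Of the Rbbp partners 6 of 18 were lower and 1 higher, led by Mybl2 (-1.88 ± 0.44), Rbl1 (-1.64 ± 0.44) and the histone acetyltransferase Hat1 (-1.01 ± 0.17). Paxip1 (-0.89 ± 0.31) and Dpy30 (-0.44 ± 0.11) were lower, 2 of 16 trithorax genes beside 10.4% of all genes. With both classes limited to neither phase, 1 of 8 tested PRC1 genes passed, Yaf2 (0.87 ± 0.30), and 0 of 7 demethylases and 0 of 8 Rbbp partners did. Immediate early genes were lower in both versions, 4 of 11 and 5 of 8, beside 10.4% and 6.72% of all genes. They included Fos (-0.96 ± 0.16 and -0.97 ± 0.22) and Egr1 (-0.81 ± 0.10 and -0.94 ± 0.13).

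Oligodendrocyte-precursor-like cells, the Pdgfra-lineage glia, had less Ezh2, Rbbp4 and Rbbp7 than the granule lineage. Ezh2 stood at 161, 65.7, 80.4 and 157 CPM from 26 UMIs, against 236, 228, 100.2 and 271 CPM (-1.03 ± 0.30, adjusted p = 0.00488). Rbbp4 stood at 69.1, 184, 134 and 256 CPM against 289.6, 312, 312 and 337 CPM, without overlap (-0.99 ± 0.25, adjusted p = 0.00134). Rbbp7 stood at 92.1, 131, 134 and 142 CPM against 283, 291, 240.4 and 279 CPM, also without overlap (-1.23 ± 0.27, adjusted p = 0.000177). All 3 were lower in 4 of 4 mice. They were the only ones of 10 genes to pass, 3 lower beside 22.9% of 7141 genes called and 11.0% higher and 11.9% lower, and the median of the 10 was -0.56 against -0.17 over all genes.

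The other 7 genes had 2 to 11 UMIs each in these cells. Of these glia, 84 of 118 cells were in neither phase, and their summed S phase genes ranged from 18.9 to 26.0 UMIs per 10000 against 44.4 to 47.8 in the granule lineage, without overlap, with 19 of 41 called lower. Their summed G2M genes ranged from 29.2 to 125 against 96.8 to 129. The cells had a median mitochondrial share of 6.66% and a median of 831 Malat1 UMIs per 10000, against cluster medians of 2.64% to 5.06% and 7.9 to 223.6 in progenitor-like cells. The part of these signs of RNA quality was not tested, since at a limit of 5% mitochondrial UMIs only 14 cells of 1 mouse were left. Among cells of neither phase alone none of the genes was called by edgeR, with -0.69 for Ezh2, -0.71 for Rbbp4 and -0.54 for Rbbp7 (adjusted p = 0.334, 0.14 and 0.304). The Ezh2 call was also lost without mouse 2 (-0.79, adjusted p = 0.0981). The deacetylases Hdac1 (-1.65 ± 0.59) and Hdac2 (-0.88 ± 0.22) and Mta2 (-1.28 ± 0.47) led 4 of 8 NuRD genes that were lower. Immediate early genes Fosb (3.46 ± 0.38), Junb (2.89 ± 0.30) and Fos (2.56 ± 0.18) were higher and Ier2 (-0.77 ± 0.22) and Btg2 (-1.30 ± 0.48) lower, the 5 called of 11 tested, with a median of 0.03. Ier2 and Btg2 are named outside the rule, after their values were seen. Their part in the lower levels was not tested.

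Astroglia-like cells gave no call for the 9 genes tested, by edgeR or DESeq2, with 234 of 7012 genes called in all (3.34%, with 2.42% higher and 0.913% lower), and none of the 9 had an unadjusted p under 0.05. Ezh2 stood at 196, 148, 134 and 259.9 CPM, overlapping the granule lineage (-0.09 ± 0.17, adjusted p = 0.888). The differences were 0.12 ± 0.15 for Rbbp4, -0.15 ± 0.17 for Rbbp7 and 0.22 ± 0.32 for Kdm6b. The class keeps granule-lineage markers, at 17.5 to 22.9 UMIs per 10000 with 13 of the 14 detected, a range that overlaps that of the oligodendrocyte-precursor-like cells. Its 3 clusters held 57.4, 223.1 and 36.7 astroglial marker UMIs per 10000. The same sum was 348.5 in the myeloid-like cluster, so it is not particular to astroglia. Of the astroglial markers 6, 13 and 7 were raised in these 3 clusters, against 2 in the myeloid-like one. Summed neutrophil markers (7 genes, 6 detected) ranged over mice from 0 to 70.8 UMIs per 10000 in the astroglia-like class, against at most 0.03 in any phase of progenitor-like cells, and microglia and macrophage markers from 0 to 2.29. The cluster with 36.7, below the 39.2 of the oligodendrocyte-precursor-like cells, was led by S100a11, Coro1a and Lsp1. A fit with the cluster of 223.1 alone, 64 cells of mice 1, 2 and 4, also called none of the genes. Neutrophil markers were not summed per cluster, so the part of these transcripts in the comparison was not tested. In the cluster with 223.1, Ezh2 was at 170.1 CPM from 25 UMIs.

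Myeloid-like cells, led by C1qb, Tyrobp and Trem2, held no Ezh2 UMI. Their 37 cells gave 62704 UMIs, in which the pooled granule-lineage level of 228 CPM would give 14.3. A count of 0 allows up to 47.8 CPM (3 counts over the group), 4.76-fold below that level. The 95% counting interval, as used for the next genes, reaches 58.8 CPM, a ratio of up to 0.258. Both limits cover counting error only. By edgeR Ezh2 was lower (adjusted p = 4.66e-05, lower in 4 of 4 mice). With 0 UMIs in each sum every mouse could only be lower, so that count of mice adds nothing. Rbbp7 had 6 UMIs, at 44.8, 0, 361 and 83.6 CPM in mice 1 to 4, a ratio of 0.344 to the granule lineage with a 95% counting interval of 0.126 to 0.75 (-1.85 ± 0.60, adjusted p = 0.0203). Rbbp4 had 10 UMIs, a ratio of 0.509 (0.244 to 0.936), and missed the threshold (-1.36 ± 0.52, adjusted p = 0.0575). Jarid2 had 4 UMIs and each of Ezh1, Eed, Suz12, Kdm6a, Kdm6b and Bmi1 had 1, where 0.94 to 3.13 would be held at the granule level, so differences were not detectable at this depth.

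In all 2 of 8 tested genes passed in myeloid-like cells, both lower, beside 14.4% of 6307 genes (3.76% higher and 10.6% lower). The median of the 8 was -1.43 against -1.09 over all genes, so the whole distribution is shifted. With DESeq2's size factors that shift was -0.79, the share of higher genes among those called moved from 26.1% to 40.8%, and Rbbp7 missed the threshold (-1.54, adjusted p = 0.0707). The call of Rbbp7 was also lost without mouse 1, 2 or 4 (-1.59, -1.54 and -1.88, with adjusted p = 0.181, 0.103 and 0.102). Summed S phase genes ranged from 8.35 to 13.6 UMIs per 10000 in these cells against 44.4 to 47.8 in the granule lineage, and the fit limited to neither phase, which had 18 myeloid-like cells of mice 1 and 4 alone and again no Ezh2 UMI, gave Ezh2 an adjusted p of 0.0774. Of NuRD 4 of 8 genes were lower, including Hdac2 (-2.99 ± 0.63), and 7 of 11 immediate early genes were higher, led by Junb (4.54 ± 0.44). No trithorax gene other than Dpy30 passed, and 0 of 15 PRC1 genes and 0 of 10 demethylases did with edgeR.

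Kdm6a escapes X inactivation in mice, and its Y-linked relative Uty is the male counterpart. Over all cells Kdm6a was at 16.4, 11.2, 20.0 and 14.6 CPM in mice 1 to 4, from 26 to 51 UMIs, and Uty at 0, 15.01, 0.77 and 13.5 CPM. The 2 libraries rich in Xist thus had the higher Kdm6a values, with no test made. In library 4 the Xist-positive progenitor-like cells held 30.3 CPM of Kdm6a (95% Poisson interval 16.6 to 50.9) and the others 11.6 CPM (7.34 to 17.4), from 14 and 23 UMIs. Cells with and without an Xist UMI held 19.2 and 7.71 CPM in library 1, and 20.5 and 5.0 CPM in library 3, where the latter is 1 UMI. The 25 Xist-positive cells of library 2 held none of 103401 UMIs, which allows up to 29.0 CPM (3 counts). Cells with an Xist UMI were the deeper ones in every library, with medians of 2300 and 1253.5 UMIs in library 1.

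The 41 genes listed as classic Polycomb targets, Hox genes with Cdkn2a and Cdkn2b, had few UMIs in these tumours. Histone marks were not measured, so whether Polycomb keeps these genes low was not tested. Of 39 Hox genes 31 had no UMI among 10228919, and the 39 together had 52, of which 24 were Hoxb2. The cycle inhibitors Cdkn2a and Cdkn2b had 36 and 20 UMIs. None passed the filter on low counts in any of the 8 comparisons. Cdkn2a was at 4.65, 3.90, 4.44 and 2.45 CPM in progenitor-like cells of mice 1 to 4, a level too low to compare between phases.

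Genes with the most similar pattern were ranked by Pearson correlation of log2 CPM over 28 mouse-by-class sums, among 5867 genes outside the lists. The points share libraries and depth, and 4 of them are the small myeloid-like sums, so the values are a description. For Ezh2 the nearest were Prps1 (r = 0.956), Arl6ip6 (0.953), Serp2 (0.95), Smc3 (0.947) and Rfc1 (0.946). Smc3 is a cohesin subunit and Rfc1 loads the replication clamp, while Prps1, Arl6ip6 and Serp2, which ranked above them, are named without a role. For Rbbp7 the nearest were Magoh (0.956), Cct2 (0.952), Nhp2 (0.949), Dut (0.94) and Sms (0.932). For Rbbp4 they were Rsl1d1 (0.945), Pbrm1 (0.935), Morf4l2 (0.93), Pcnp (0.93) and Gtf2h5 (0.929). For Kdm6b they were Josd2 (0.928), Pmvk (0.91), Plxnb2 (0.898), Uba3 (0.881) and Ddx56 (0.879). The highest value was 0.864 for Suz12 (Rabif) and 0.816 for Eed (Cwc22), whose sums are smaller. Paired with the other chosen genes, Ezh2 had its highest value with Kdm6b (r = 0.721), which was lower in both cycling groups. It had 0.651 with Rbbp7, 0.561 with Rbbp4, 0.415 with Suz12 and 0.314 with Eed. A high value over these sums therefore does not show a shared change over the cycle.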

How the data were processed

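Accutase was used to dissociate the tumours and 7-AAD to sort out dead cells, per the labels' protocols, and 10x Chromium 3' libraries were sequenced, that of mouse 1 in repeated rounds. The submitters' processing notes name Cell Ranger 2.0.2, Seurat and mm10, while the annotation release is not given in the sources used here. The deposited values are raw counts of UMIs for each gene in each cell, without normalisation by the authors, 11469554 UMIs over 5670 barcodes (1679285 to 3801197 per library). The design text states 4749 cells, with a filter that is not given.

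Cells with at least 500 genes and at most 10% mitochondrial UMIs were kept (4620 barcodes by the first, 4137 by both). Scrublet, run per library at an expected 2%, removed 36 (0.87%), and further doublets may remain. Clustering used scanpy 1.11.5 and leidenalg 0.10.2 (Python 3.11.15) with 2000 variable genes, 30 components, 15 neighbours and resolution 1, without the genes of the lists. Each class other than the progenitor-like one needed at least 3 raised markers. The progenitor-like class is the remaining clusters, in which no marker list had 3 genes raised over the rest of the cells. The limits of that naming, like the Xist, Malat1-cluster, marker-cluster and 2000 UMI alternatives, were chosen after seeing the data. The study regressed the cell cycle out, and that was run as an alternative.

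Counts summed per mouse and class were tested with edgeR 4.0.16 (R 4.3.3; TMM, filterByExpr, quasi-likelihood, mouse as block, Benjamini-Hochberg over all genes, 0.05), with at least 10 cells per mouse and class (5 for myeloid-like cells), and with DESeq2 1.42.0 as an alternative. The code was tested on simulated data. The pairing comes from the animal, since a mouse contributes both classes through its 1 library, and their deviations correlated at 0.004 to 0.523. Classes were drawn from the same cells that were tested, so p-values describe the classes. The 10 genes, the companion lists and the markers were chosen with earlier results of these data known. All 10 genes are named, with up to 3 called genes of largest change per list and comparison and the 5 most alike genes. Promoter windows came from RefSeq.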

Additional observations from a re-analysis of the deposited data

Results flagged for a closer look

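Of 80 sets of 4 mice (10 genes in 8 classes), 5 had a mouse far from the other 3 by Dixon's ratio, and chance alone flags about 1 in 20, or 4. Ezh2 in differentiating granule-like cells was lowest in mouse 3 at 79.8 CPM, with the next mouse at 175.6. Eed in the same class was listed at 0.0 CPM in mouse 3, with the next at 17.4, from 23 UMIs in all. Suz12 in granule-lineage-like cells was highest in mouse 4 at 41.3 CPM, with the next at 30.8. In astroglia-like cells Kdm6a was highest in mouse 1 at 25.3 CPM, from 4 UMIs with the other 3 mice at 0. Bmi1 in the same class was highest in mouse 3 at 100.7 CPM, from 20 UMIs, with the next at 39.7.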

How the results depend on the processing

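Of 951 values of single genes under alternatives, 894 kept their call or lack of one, 51 lost a call and 6 gained one, and no called value changed sign. Among the 894, 73 changed sign where neither value was called.

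For differentiating against progenitor-like cells the count of called genes was 5, and became 1 with no replicate block, 3 with DESeq2, 1 with cells thinned to 1000 UMIs, 3 at Leiden resolution 1.5, 3 with the phase scores regressed out and 2 to 5 when leaving out a mouse. For S against neither phase it was 6, and 3 when thinned (of 3 genes tested) and 4 to 5 without a mouse. For G2M it was 5, and 2 when thinned and 5 to 6 without a mouse. For oligodendrocyte-precursor-like cells it was 3, and 1 when thinned, 0 in neither phase only and 2 to 3 without a mouse. For myeloid-like cells it was 2, and 1 with DESeq2's size factors, 1 with DESeq2, 1 when thinned, 0 in neither phase only and 1 to 2 without a mouse. The remaining 3 comparisons stayed at 0 under every alternative run. Thinning leaves fewer UMIs and fewer genes tested, while for the other settings the cause was not tested.

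Without the block that pairs classes of a mouse, the counts for S, G2M, oligodendrocyte-precursor-like and myeloid-like cells were 4, 5, 2 and 3. The calls lost were Ezh2, Eed, Rbbp7 and Kdm6b in differentiating cells, Eed and Suz12 in S, and Ezh2 in the precursor-like glia, and Rbbp4 in myeloid-like cells was gained. Genes called in all fell from 1574 to 670 in the first comparison, from 1029 to 322 in S and from 1547 to 544 in G2M. Over all alternatives, genes called ranged from 670 to 1609, 276 to 638 (both classes in neither phase), 322 to 1029, 543 to 1547, 256 to 956 (G2M against S), 725 to 2281, 75 to 344 (astroglia-like) and 407 to 1553. Leaving out low-Malat1 cells, or Xist-positive cells of libraries 2 and 4, changed the count by at most 1. A limit of 5% mitochondrial UMIs was not run for oligodendrocyte-precursor-like cells, of which too few mice kept enough cells. Genes with under about 100 UMIs in a class (Ezh1, Kdm6a, Eed) are limited by depth.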
